A study of Mus musculus with 9 samples.

Results

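The genes described here are 5 genes of the actin and myosin cytoskeleton, Mical1, Lcp1, Myh9, Svil and Coro1a, out of 18193 genes measured. Mical1, Lcp1, Myh9 and Svil were taken because they were among the genes lowest in T cells cultured with allogeneic dendritic cells against T cells stimulated with antibodies to CD3e and CD28. Coro1a was added as a leukocyte actin regulator. All 14 probe sets of the array that are listed for 1 of these genes alone were used, and none was removed by a filter. The difference between allogeneic and antibody cultures therefore chose 4 of the 5 genes, and for those 4 it is given as a description with no test. Ranks of those 4 genes in that comparison restate the choice and are no support for it.

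The samples were C57BL/6 mouse T lymphocytes in 3 groups of 3 arrays each. Syngeneic cultures held T cells with C57BL/6 dendritic cells, allogeneic cultures held them with BALB/c dendritic cells, and the third group was cultivated with anti-CD3e and anti-CD28 at 0.1 µg/ml. All cultures lasted 24 h, with 20 T cells per dendritic cell where dendritic cells were present, and T cells were then isolated with magnetic beads. After ultraviolet crosslinking, Argonaute (AGO), the protein that holds microRNAs and their target transcripts, was precipitated with an antibody in every group, and RNA bound to it was amplified for hybridisation to arrays that measure messenger RNA. The labels number the arrays 1 to 3 in each group as biological replicates but name no animals or cultures, so p-values measure the spread between these arrays. Each value is the log2 signal of a probe set for RNA recovered with AGO, and the number of arrays limits its precision. Fewer cells of a type, less RNA per cell and less AGO binding cannot be told apart in such bulk samples.

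Actin filaments under the T cell membrane are built, bundled and taken apart within minutes of receptor engagement, and myosin motors pull on them as the contact with the stimulating surface forms and as the cell crawls. Antibodies to CD3 and CD28 and peptide-bearing dendritic cells both engage this machinery. Lcp1 encodes L-plastin, the leukocyte protein that bundles actin filaments. Myh9 encodes the heavy chain of non-muscle myosin IIA, the main contractile motor of T cells. Svil encodes supervillin, a protein of the villin and gelsolin family that ties actin and myosin II to membranes. Mical1 encodes an enzyme that oxidises actin and so takes filaments apart. Coro1a encodes coronin 1A, which binds actin and the Arp2/3 complex and is needed for the survival of peripheral T cells.

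Of the members, 3 are shown here by their promoters from the RefSeq-based table (GRCm38.p6), as the 250 bases before an annotated transcript start, to set their letters side by side. Svil had no entry. The windows are Lcp1 at chr14:75130873-75131122 on the plus strand, Myh9 at chr15:77842176-77842425 on the minus strand and Coro1a at chr7:126704817-126705066 on the minus strand. Capitals mark the GC box GGGCGG, read on either strand, and no 2 matches overlapped.
Lcp1: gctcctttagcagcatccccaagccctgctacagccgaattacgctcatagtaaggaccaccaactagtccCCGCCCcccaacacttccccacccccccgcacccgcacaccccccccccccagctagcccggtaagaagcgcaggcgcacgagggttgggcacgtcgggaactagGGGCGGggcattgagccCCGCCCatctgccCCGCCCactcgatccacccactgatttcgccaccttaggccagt
Myh9: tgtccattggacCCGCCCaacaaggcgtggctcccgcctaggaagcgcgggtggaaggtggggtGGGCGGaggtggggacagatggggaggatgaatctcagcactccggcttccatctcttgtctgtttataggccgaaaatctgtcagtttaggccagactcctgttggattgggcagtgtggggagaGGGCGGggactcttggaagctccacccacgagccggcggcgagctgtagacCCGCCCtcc
Coro1a: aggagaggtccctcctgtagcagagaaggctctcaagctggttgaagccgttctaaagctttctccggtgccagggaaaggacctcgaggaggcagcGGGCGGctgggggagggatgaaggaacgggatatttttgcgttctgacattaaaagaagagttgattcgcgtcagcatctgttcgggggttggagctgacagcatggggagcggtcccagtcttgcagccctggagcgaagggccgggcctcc

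Lcp1 and Myh9 each held 4 GC boxes, and Coro1a held 1. Of 32851 promoter windows of the same length, 32.7% held a GC box. The CArG box bound by serum response factor, a regulator of many actin genes, was in 1.47% of windows, the ETS core CGGAAG in 13.6%, the AP-1 site TGANTCA in 6.75% and the NFAT core GGAAAA in 20.4%, and none of these 4 motifs was in the windows of these genes, the further windows of Lcp1 and Coro1a included. These are matches of letters, and the further windows of Lcp1 and Coro1a held no GC box.

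On the brightest probe sets the antibody cultures carried the highest mean signal for all 5 genes, and the allogeneic cultures the lowest. The differences were larger in the arrays numbered 2 and 3 than in number 1 for all 5. In number 1 the allogeneic and antibody arrays were nearly the same across the whole array: their difference had an SD of 0.10 (log2) over all genes, against 0.49 in number 2 and 0.68 in number 3. Arrays with the same number resembled each other throughout, with correlations of 0.811 to 0.921 between their deviations from the group means. Differences within a number are therefore given for every gene, and limma was run with and without the replicate number as a block, entered as a fixed term wherever a block is named here. The antibody array of number 1 also carried Fscn1, a dendritic cell gene named after its values were seen, near the level of the other arrays of that number. Fscn1 stood at 9.97 there, against 10.44 on allogeneic and 10.20 on syngeneic array 1, and at 7.75 and 7.72 on antibody arrays 2 and 3. Of the other dendritic cell markers, Ccl17 and Ccl22 were likewise brighter on antibody array 1 than on antibody arrays 2 and 3. H2-Ab1, Cd74 and Zbtb46 were lower there. Cd86 was nearly level (6.84 against 6.82 and 6.78), and Ccr7, Cd80, Flt3 and Itgax lay between antibody arrays 2 and 3. The files do not settle whether the arrays of number 1 hold the cultures their labels name. Every mean over 3 arrays and every difference in number 1 rests on those labels, and values without number 1 are given as well.

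**Figure D1:**
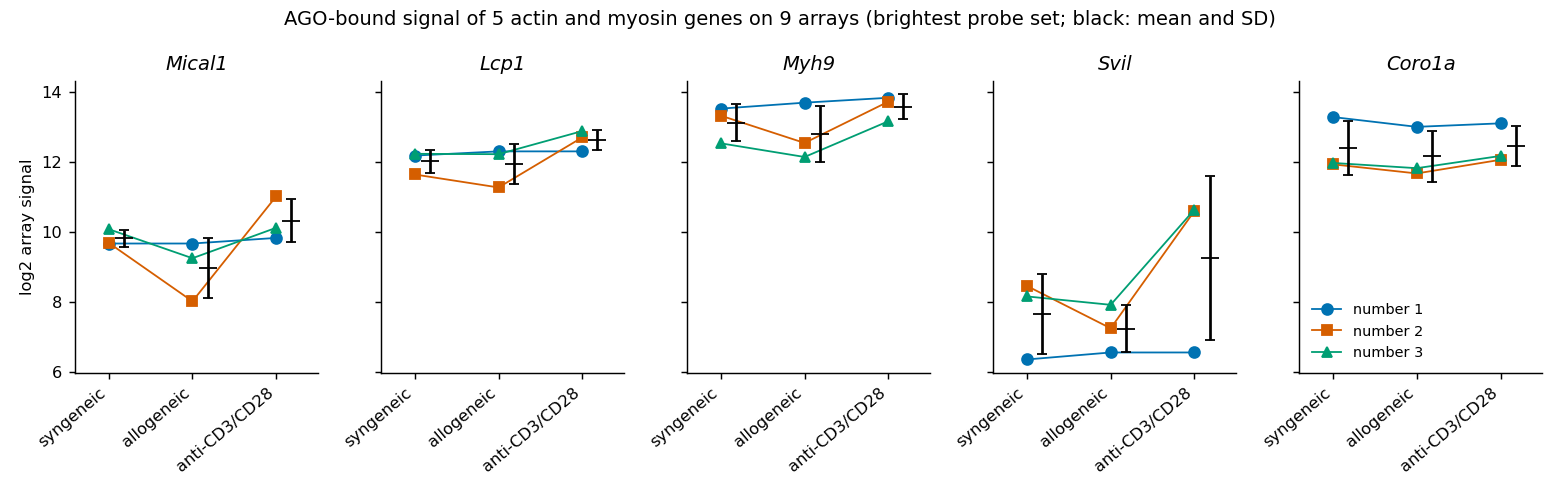
Log2 array signal of the brightest probe set of each gene (vertical axis) in the 3 cultures (horizontal axis). Coloured points joined by lines are the arrays of replicate numbers 1 to 3, and black marks are the group mean ± SD (n = 3). Svil stood at 10.60 and 10.64 on antibody arrays 2 and 3 and at 6.36 to 8.46 on the other 7 arrays, whereas Coro1a differed more between numbers than between cultures.

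Svil had the widest range. On its brightest probe set the antibody arrays stood at 6.56, 10.60 and 10.64 (log2, numbers 1, 2 and 3), the allogeneic arrays at 6.56, 7.25 and 7.92 and the syngeneic arrays at 6.36, 8.46 and 8.16. Antibody arrays 2 and 3 were above all other arrays, and antibody array 1 lay in the range of the others, so the groups overlapped. The mean log2 difference of allogeneic minus antibody cultures was −2.03 ± 1.01 (SE), the lowest of all 18193 genes by size, with 0.00, −3.35 and −2.72 within numbers 1, 2 and 3. The value of 0.00 in number 1 is an exact equality of the 2 deposited signals. Against syngeneic culture the antibody arrays were higher by 2.14 and 2.48 in numbers 2 and 3, and the allogeneic arrays differed from it by −1.21 and −0.25. The second probe set gave 0.11, −2.85 and −2.33 for allogeneic minus antibody, and stood at 10.34 and 9.62 on antibody arrays 2 and 3 and at 6.16 to 7.89 on the others. The brightest has the suffix _s_at, which marks probes shared by several transcripts, and the second does not. Both probe sets placed the same pair of arrays apart from the other 7. In percentiles of all probe sets on an array, the brightest probe set of Svil lay at 97.9 and 96.3 on those 2 arrays and between 76.2 and 88.5 on the rest.

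Mical1 was the gene with the lowest test statistic in this comparison, rank 1 of 18193. Its brightest probe set stood at 9.83, 11.02 and 10.12 on antibody arrays, 9.67, 8.02 and 9.25 on allogeneic arrays and 9.67, 9.69 and 10.08 on syngeneic arrays. The allogeneic arrays lay below all 3 antibody arrays without overlap, which 10 genes (0.055%) did in that direction. This count belongs to the contrast that chose the gene, and nothing is read from it. The mean difference was −1.35 ± 0.53 (SE), with −0.16, −3.01 and −0.87 within the numbers. Number 2 held both the highest antibody value and the lowest allogeneic value. Mical1 was lower in allogeneic than in syngeneic arrays in both numbers 2 (−1.67) and 3 (−0.84), and exactly equal in number 1. The brightest probe set has the suffix _x_at, which marks probes that can match other transcripts. The second probe set, without that suffix, gave −0.37, −2.66 and −0.92 and did not overlap either.

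Lcp1 was among the brightest genes on every array, between the 99.1 and 99.9 percentiles. Its brightest probe set stood at 12.30, 12.70 and 12.88 on antibody arrays, 12.30, 11.27 and 12.22 on allogeneic arrays and 12.18, 11.64 and 12.23 on syngeneic arrays. Antibody arrays 2 and 3 were the highest of the 9, and allogeneic array 2 was the lowest. The mean difference of allogeneic minus antibody was −0.70 ± 0.32 (SE; test statistic rank 2), with an exact equality in number 1, −1.43 in number 2 and −0.65 in number 3. The second probe set gave −0.10, −1.98 and −0.80. Antibody arrays lay above all syngeneic arrays on both probe sets, with differences of 0.12, 1.06 and 0.65 on the brighter one, and 0.412% of all genes were higher without overlap in that comparison. That comparison shares the antibody arrays with the one that chose the gene. Allogeneic and syngeneic arrays differed little, by 0.12, −0.37 and −0.01.

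Myh9 is covered by 5 probe sets, which differed from each other in level and in the size of the difference. The brightest stood at 13.83, 13.72 and 13.16 on antibody arrays, 13.69, 12.54 and 12.14 on allogeneic arrays and 13.52, 13.32 and 12.53 on syngeneic arrays. Within each number the antibody array was the highest of the 3, but number 3 was low in all cultures and the groups overlapped. The mean difference of allogeneic minus antibody was −0.78 ± 0.37 (SE; test statistic rank 3), with −0.14, −1.18 and −1.02 within the numbers. The second probe set gave −0.24, −0.66 and −0.64. The third, bright but more variable, ranged from 9.07 on allogeneic array 2 to 13.20 on antibody array 3, with differences of −0.41, −3.58 and −1.76. Its groups did not overlap, as was so in that direction for 0.055% of genes on their brightest probe sets. The contrast chose the gene, and nothing is read from this. The third probe set was low on syngeneic array 1 too, at 9.31 against 11.25 and 11.66 on the other arrays of number 1. The fourth gave 1.31, −2.80 and −2.36 and the fifth, the dimmest, −0.04, 0.20 and −1.50. All 5 were lower in allogeneic than in antibody cultures in number 3, and 4 of 5 were in numbers 1 and 2. The direction of the mean was shared by all 5, and its size ran from −0.45 to −1.92. That direction belongs to the contrast that chose the gene, and probe sets of 1 gene are not independent. Against syngeneic culture, the antibody arrays differed by 0.31, 0.40 and 0.63 on the brightest probe set, and by 0.11 to 2.35 over the 5 probe sets. The antibody arrays are shared with the comparison that chose the gene, so nothing is read from this.

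**Figure D2:**
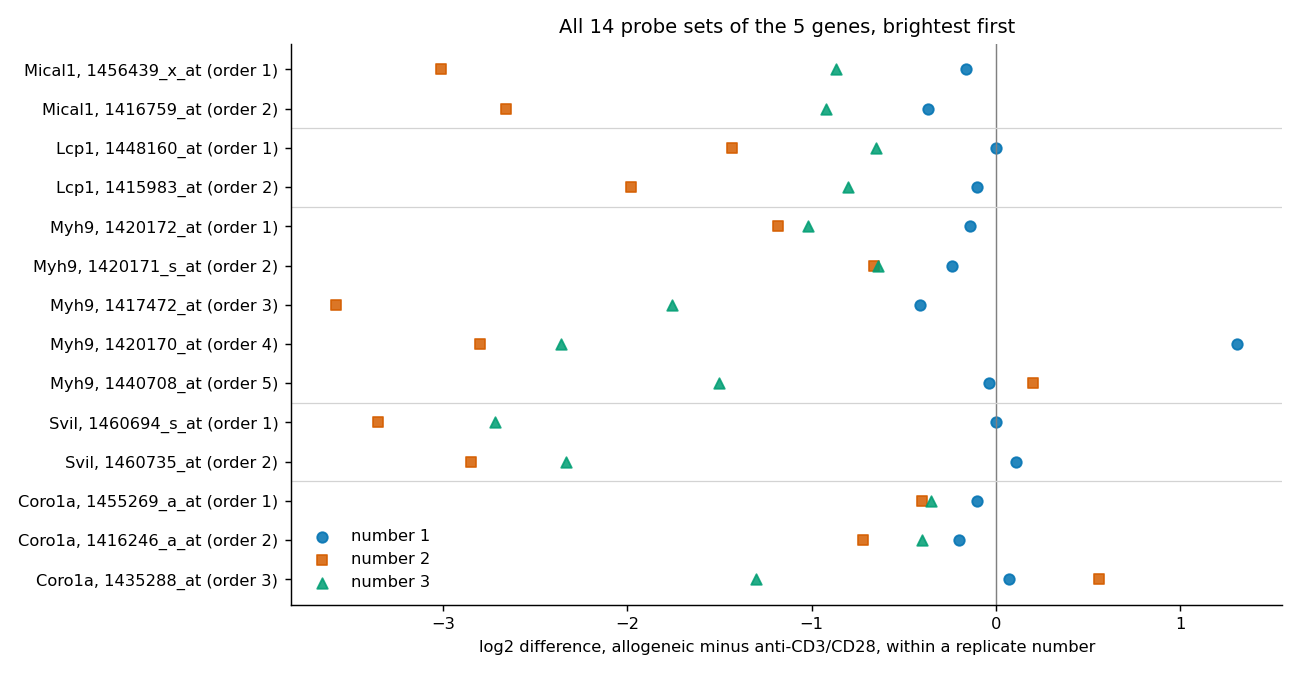
Log2 difference of allogeneic minus antibody arrays within each replicate number (horizontal axis, 0 marked by a line) for the 14 probe sets of the 5 genes (vertical axis, brightest first within a gene). Number 3 lies below 0 for all 14 probe sets and number 2 for 12. Number 1 runs from −0.41 to 0.11, apart from the fourth Myh9 probe set (1.31). This difference chose Mical1, Lcp1, Myh9 and Svil, and probe sets of 1 gene are not independent, so the counts are a description.

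Coro1a was not chosen by this comparison, in which its test statistic had rank 663 from the lowest. Its brightest probe set stood at 13.10, 12.06 and 12.17 on antibody arrays, 13.00, 11.67 and 11.82 on allogeneic arrays and 13.28, 11.93 and 11.97 on syngeneic arrays. The arrays numbered 1 stood above all others (lowest 13.00 against a highest of 12.17), so the groups overlapped. The mean difference of allogeneic minus antibody was −0.28 ± 0.45 (SE; limma adjusted p = 1.0), lower in 3 of 3 numbers (−0.10, −0.40 and −0.35), as were 2.58% of all genes. With the replicate block the SE was 0.09, the unadjusted p was 0.0213 and the adjusted p was 0.928. The second probe set gave −0.20, −0.72 and −0.40, and the third, which ranged from 6.03 to 8.31, gave 0.07, 0.56 and −1.30. In this comparison limma called 0 of 18193 genes (0%), with or without the fixed block, and 24 (0.132%) had an unadjusted p under 0.05, or 205 (1.13%) with the block. The group means of its brightest probe set had the order of the other members. Its antibody and syngeneic means were nearly level (0.05 ± 0.45, SE), with −0.18 in number 1. The difference of allogeneic minus antibody was not called.

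The comparison of both stimulated cultures with syngeneic culture is balanced against the one that chose the genes, and the members were tested in it. None of the 5 was called. The differences were 0.59 ± 0.87 for Svil, 0.26 ± 0.28 for Lcp1, 0.06 ± 0.32 for Myh9, −0.09 ± 0.39 for Coro1a and −0.16 ± 0.46 for Mical1 (SE; limma adjusted p = 1.0 each). With the replicate block the adjusted p ran from 0.69 for Lcp1 to 0.906 for Myh9. On the brightest probe sets Lcp1 was higher in 3 of 3 numbers (0.12, 0.35 and 0.32), as was Svil (0.19, 0.47 and 1.11). The second probe sets gave 0.35, 0.11 and 0.38 for Lcp1 and −0.05, 1.03 and 1.12 for Svil. Across all genes 10.7% were higher in all 3 numbers, and 0 of 18193 genes (0%) were called without the block or with it as a fixed term (24 with it as a random term), with 110 (0.605%) at an unadjusted p under 0.05, or 1270 (6.98%) with the block. That mean combines 2 cultures, which are given here side by side. Relative to syngeneic culture, Mical1 had a mean difference of 0.51 ± 0.53 in antibody and −0.84 ± 0.53 in allogeneic cultures, and Svil 1.60 ± 1.01 and −0.42 ± 1.01. For Lcp1 these were 0.61 ± 0.32 and −0.09 ± 0.32, for Myh9 0.45 ± 0.37 and −0.33 ± 0.37, and for Coro1a 0.05 ± 0.45 and −0.23 ± 0.45 (adjusted p = 1.0 each for Coro1a). These 2 comparisons share their syngeneic arrays, and each shares arrays with the one that chose the genes. Each called 0 genes (0%) without the block or with it as a fixed term. As a random term the block gave 1 called gene for allogeneic and 30 for antibody cultures. An unadjusted p under 0.05 was found for 27 genes (0.148%), or 825 (4.53%) with the block, in allogeneic cultures and for 156 (0.857%), or 1236 (6.79%), in antibody cultures. Coro1a had a blocked p of 0.045 in the allogeneic comparison (adjusted p = 0.709).

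Without the arrays numbered 1, both stimulated minus syngeneic was 0.79 for Svil, 0.33 for Lcp1, −0.04 for Myh9, −0.02 for Coro1a and −0.29 for Mical1 (limma adjusted p = 1.0 each). Without them the differences of allogeneic minus antibody were −3.04 for Svil, −1.94 for Mical1, −1.10 for Myh9, −1.04 for Lcp1 and −0.37 for Coro1a. Single arrays moved some values by over 1.5 times. Leaving out allogeneic array 2 gave −0.87 for Mical1, −0.37 for Lcp1 and −0.03 for Coro1a. For Svil, leaving out antibody array 1 gave −3.38 and antibody array 3 gave −1.34. For Myh9 the value was −1.23 without allogeneic array 1 and −0.46 without allogeneic array 3. For Coro1a it was −0.70 without allogeneic array 1, −0.11 without allogeneic array 3, −0.47 without antibody array 2 and 0.05 without antibody array 1. Against syngeneic culture, antibody minus syngeneic was 0.16 for Mical1 without antibody array 2 and 0.15 for Myh9 without syngeneic array 3. For Svil it was 2.96 without antibody array 1, and 0.92 to 0.96 without antibody array 2, antibody array 3 or syngeneic array 1. Lcp1 ran from 0.42 to 0.77 over the 9 fits that each left out 1 array. Allogeneic minus syngeneic was −0.36 for Mical1 without allogeneic array 2, and ran from −0.78 to −0.01 for Myh9 and from −1.07 to −0.02 for Svil over those fits.

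Other genes of the actin machinery were followed in 7 lists. They cover actin monomers, nucleation, bundling, capping, myosins, relatives of the members and the serum response factor axis, and 108 of 114 listed genes were measured. Of these 108, 0 were called between allogeneic and antibody cultures, with or without the fixed block. The share of all 18193 genes called was 0% too, so nothing about the actin machinery is read from that count. List medians of the difference lay between −0.13 and 0.03, against 0.04 for all genes. Centring each array on its median shifted the median of all genes by −0.15 and the share of all genes below 0 from 35.0% to 73.9%, so signs of small differences depend on the scaling.

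Among myosins and their regulators, 10 of 22 measured genes had a lower mean in allogeneic cultures, or 16 with centred arrays, and the median was 0.01 (−0.13 centred). Myh10, the heavy chain of non-muscle myosin IIB, stood at 5.07, 9.0 and 7.93 on antibody arrays, 5.07, 5.85 and 6.36 on allogeneic arrays and 4.88, 7.83 and 5.98 on syngeneic arrays, a difference of −1.58 ± 1.00 for allogeneic minus antibody. Its array 1 values were low in every culture, as those of Svil were. Myo1e, a membrane-binding class I myosin, differed by −1.48 ± 1.25, with 0.00, −1.95 and −2.50. Mylk, the kinase that activates myosin light chains, differed by 1.55 ± 1.03, with −0.06, 0.15 and 4.58. For Myh10, Myo1e and Mylk limma gave adjusted p = 1.0 each, and with the block 0.928 each.

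Among bundling proteins and membrane linkers, 12 of 18 genes had a lower mean in allogeneic cultures (14 with centred arrays; median −0.09). The actin cross-linkers Actn4 and Actn1 differed by −1.14 ± 1.43 and −0.69 ± 0.60, and the scaffold Iqgap1 by −1.05 ± 1.08 (adjusted p = 1.0 each). Iqgap1 gave −0.03, −2.13 and −1.01 within the numbers. The gelsolin family and capping list joins relatives of Svil with capping and membrane skeleton genes. Of this list 8 of 13 were lower (11 centred, median −0.13). Among the relatives of Svil, Gsn and Flii had a lower mean in allogeneic than in antibody cultures on the deposited values. Scin, Capg, Avil and Vil1 had a higher one. Gsn differed by −0.79 ± 1.29, with −0.09, 0.06 and −2.35, and the membrane skeleton genes Add3 and Add1 by −0.49 ± 0.48 and −0.24 ± 0.36. Of the kin of Mical1 and Coro1a 5 of 10 were lower (7 centred; median −0.03), with Mical2 at 0.39 ± 0.61, Coro1c at −0.25 ± 0.52 and Micall2 at 0.24 ± 0.52.

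Among Arp2/3 subunits and nucleation factors 12 of 23 were lower (17 centred; median −0.05). Cttn, an activator of Arp2/3, differed by 0.76 ± 0.82, the subunit Arpc1a by 0.54 ± 0.68 and Dock2, the leukocyte activator of Rac, by −0.60 ± 0.76 (adjusted p = 1.0 each). Dock2 gave −0.07, −0.97 and −0.76 within the numbers. Of the actin and monomer handling genes 10 of 14 were lower (12 centred; 8 after quantile normalization; median −0.05). The cofilin phosphatase Ssh2 differed by −0.78 ± 0.61, the cofilin kinase Limk2 by −0.45 ± 0.67 and the monomer-binding Tmsb4x by 0.12 ± 0.28. On the serum response factor axis 4 of 9 were lower (7 centred; median 0.03), with Srf at 0.26 ± 0.55, Cnn2 at −0.21 ± 0.57 and Egr1 at −0.13 ± 0.48. Against syngeneic culture, the 7 lists had medians between −0.10 and 0.00 for both stimulated cultures together. Of the 108 genes 0 were called there, and of all 18193 genes 0 (0%).

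**Figure D3:**
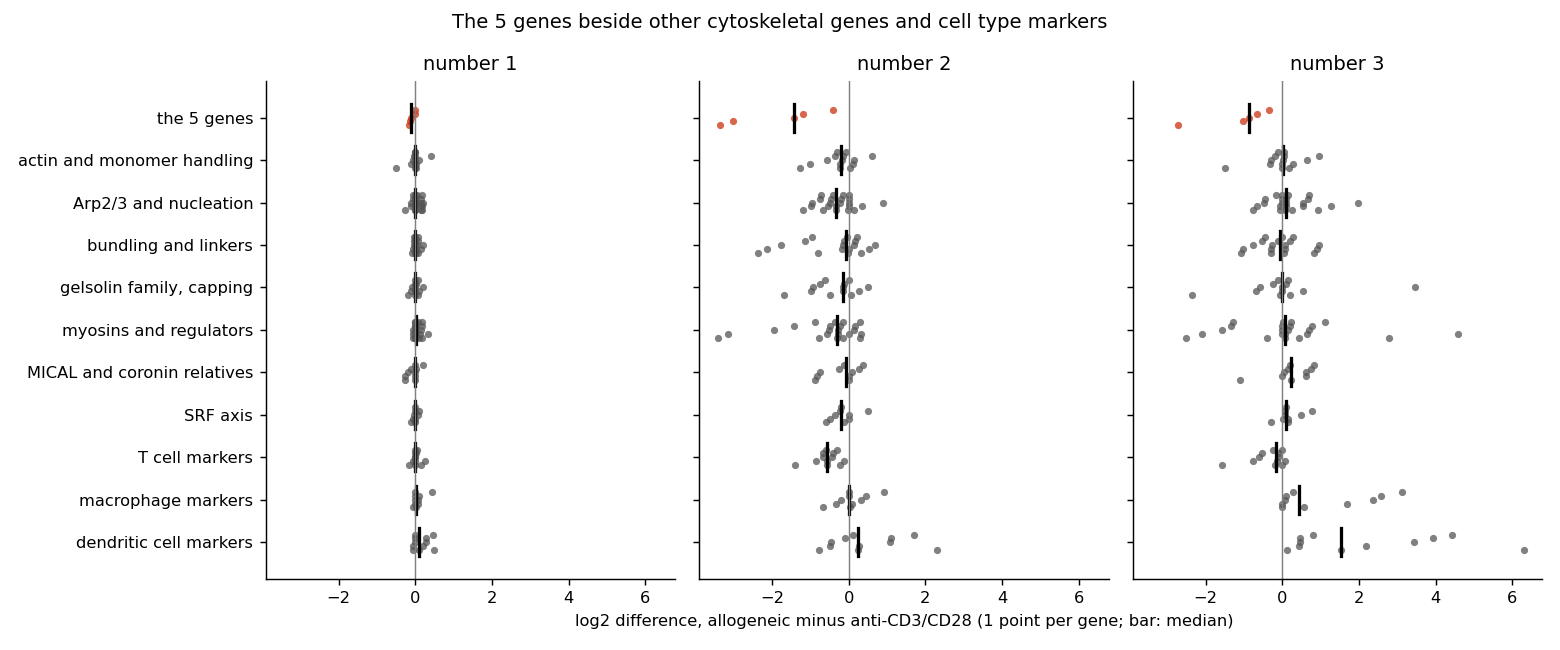
Log2 difference of allogeneic minus antibody arrays (horizontal axis) within replicate numbers 1, 2 and 3 (panels) for the 5 genes in red and for fixed lists in grey (vertical axis), 1 point per gene with a black bar at the list median. In number 2 the 5 genes lie between −3.35 and −0.40 and the T cell markers have a median of −0.56, and in number 3 dendritic cell markers have a median of 1.53. The difference shown chose Mical1, Lcp1, Myh9 and Svil, so their place beside the lists is a description.

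Markers of cell types also differed between allogeneic and antibody arrays, though neither they nor any other of the 18193 genes were called. All 12 measured T cell markers had a lower mean in allogeneic than in antibody cultures (11 after quantile normalization), with list medians of 0.00, −0.56 and −0.16 in numbers 1, 2 and 3. Their summed signal ran from 13.96 to 14.87 (log2) on antibody arrays, 13.49 to 14.61 on allogeneic arrays and 13.41 to 14.63 on syngeneic arrays, and all 12 were above the array median on every array. Set against the T cell median of the same number, the difference for Svil was −2.79 and −2.56 in numbers 2 and 3, and the corresponding values were −2.44 and −0.71 for Mical1, −0.87 and −0.49 for Lcp1 and −0.62 and −0.85 for Myh9. For Coro1a they were 0.17 and −0.19. The comparison chose the other 4 genes for their low values, so nothing is read from their larger size. Mean differences of the 12 markers ran from −0.98 to −0.01. Those of Lcp1 (−0.70), Myh9 (−0.78) and Coro1a (−0.28) lay within that range.

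Of dendritic cell markers 9 of 11 were higher in allogeneic cultures (8 with centred or quantile-normalized arrays), with medians of 0.10, 0.25 and 1.53. Their summed signal was 12.14 to 13.43 on antibody, 12.58 to 14.75 on allogeneic and 13.26 to 14.57 on syngeneic arrays. The chemokine gene Ccl17, named after its values were seen, stood at 9.80, 7.53 and 5.86 on antibody arrays and at 10.01, 9.83 and 12.16 on allogeneic arrays. It was bright on antibody array 1, whose culture is not described to hold dendritic cells. Macrophage markers had summed signals of 8.10 to 9.46, 9.26 to 10.06 and 11.94 to 12.76 in antibody, allogeneic and syngeneic cultures, with 7 of 10 higher in allogeneic than in antibody cultures (6 centred). Csf1r, the defining receptor, did not exceed the array's median on all 3 antibody arrays and 1 allogeneic array, whereas Lyz2 and Cd68 exceeded it on every array. Of the 10 macrophage markers, 2 to 4 exceeded the median on antibody arrays, 3 to 5 on allogeneic arrays and 6 to 7 on syngeneic arrays. Of B cell markers 5 of 6 were lower (median −0.25), of granulocyte markers 6 of 6 were higher (5 centred; median 0.86), of platelet markers 5 of 6 (3 centred; median 0.11, or −0.04 centred) and of stromal and smooth muscle markers 6 of 8 (3 centred; median 0.10, or −0.05 centred). The summed signal of the platelet markers was 7.32 to 8.44 on antibody, 7.30 to 8.91 on allogeneic and 7.43 to 8.85 on syngeneic arrays, that of the stromal markers 7.51 to 10.95, 7.51 to 11.46 and 7.45 to 13.04, that of the granulocyte markers 6.98 to 8.30, 7.34 to 10.22 and 7.44 to 10.39, and that of the B cell markers 11.27 to 12.71, 11.92 to 12.93 and 12.49 to 13.78. Their part in the differences of the 5 genes was not tested.

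The genes whose pattern was closest to the mean of the 5 were found after centring values within each replicate number, by the root mean square difference over the 9 arrays, among 8815 other named genes with a mean signal above the median. They were Klhl6, an adaptor of lymphocyte ubiquitin ligases (0.120 log2), the spectrin gene Sptbn1 (0.144), the mannose 6-phosphate receptor gene Igf2r (0.152), Denn2b (0.157) and the histone methyltransferase gene Setdb1 (0.182). Sptbn1 gave 0.00, −1.93 and −1.40 for allogeneic minus antibody within the numbers, and Klhl6 gave 0.05, −2.04 and −1.12. Among 8819 candidates for single members, the nearest gene was Klhl6 to Mical1 (0.277), Igf2r to Myh9 (0.0566), Rad50 to Lcp1 (0.0595), Zfp748 to Coro1a (0.0515) and Myh10 to Svil (0.364). Between members the closest pair was Lcp1 and Myh9 (0.194), and the farthest was Svil and Coro1a (0.959). Of these 8 genes, Sptbn1 and Myh10 encode cytoskeletal proteins.

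Svil, Lcp1 and Myh9 are long genes. In the RefSeq table (GRCm38.p6) Svil spans 198827 bases including introns, longer than 94.6% of measured protein-coding genes, Lcp1 99738 (86.7%) and Myh9 81591 (83.3%), whereas Mical1 spans 11171 (30.6%) and Coro1a 5043 (14.3%). Genes were divided into 5 equal groups by genomic span and those with a signal above the median were compared, a comparison chosen after the values were seen. In the group with the longest span, 4.61% of 1604 genes were lower in allogeneic than in antibody arrays by over 0.5 (log2) in numbers 2 and 3 alike, against 0.409% of 1467 genes in the shortest group. The shares between were 0.771%, 1.38% and 2.44%. Genes higher by over 0.5 in both numbers made up 2.87% of the longest and 4.91% of the shortest group. These shares are a description of 4 arrays, with genes that are not independent, and transcript length was not used here. The part of span in the differences of the members was not tested.

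**Figure D4:**
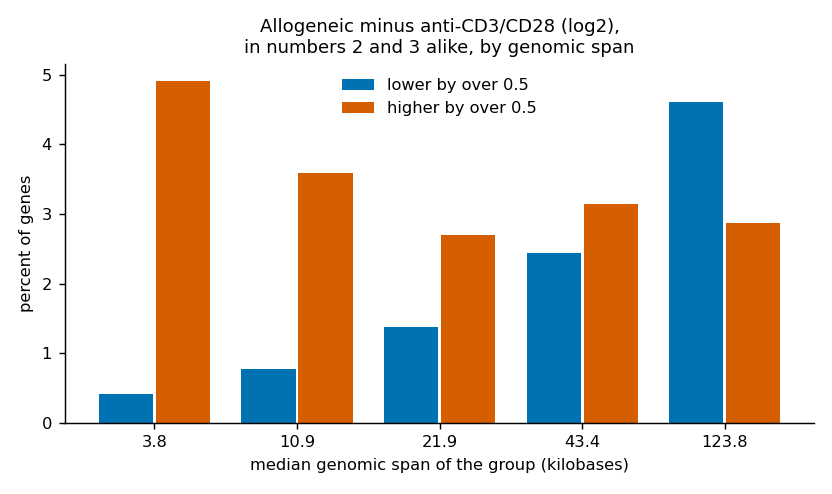
Percent of genes with a signal above the median (vertical axis) that were lower (blue) or higher (orange) by over 0.5 (log2) in allogeneic than in antibody arrays in both numbers 2 and 3, in 5 equal groups of genomic span (horizontal axis, median span of the group in kilobases). The lower share is 0.409% in the shortest and 4.61% in the longest group.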

How the data were processed

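The values are log2 signals per probe set, made by the authors with RMA (robust multi-array average), per the submitters' processing notes. Its software version is not given in the sources used here. Deposited values were not normalized again, and their medians per array lay between 4.58 and 5.67. From 20.9% to 51.3% of values were exactly equal between arrays of 1 number, and 0% between numbers.

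Of 45101 probe sets, 34945 listed for a single gene were kept, and the probe set of highest mean signal stood for each of 18193 genes. Probe sets with several genes (932), no gene listed (9160) and controls (64) were left out. Symbols came from the platform annotation, brought up to date by gene ID for 34741 probe sets.

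Tests used limma 3.58.1 (R 4.3.3) on all 9 arrays together, with 1 mean per group, an intensity trend and Benjamini-Hochberg adjustment over all genes at 0.05. The median SE of a difference between 2 cultures was 0.639, or 0.156 with the replicate block. The numbers pair the arrays (all 9 same-number correlations over 0.1). An SE printed after ± is without the block, for members and list genes alike. With the fixed block the SE of allogeneic minus antibody was 0.54 for Mical1, 0.26 for Lcp1, 0.22 for Myh9 and 0.67 for Svil. The test was checked on simulated data. The members, lists and tests were chosen with earlier results of these data known. Named genes of a pathway list are the 3 with the smallest p in allogeneic against antibody cultures, plus further relatives of Svil given by direction. B cell to stromal marker lists are given by counts. 1 promoter with an entry is not reported here. Tables were made with Python 3.11.15.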

Additional observations from a re-analysis of the deposited data

How the results depend on the processing

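With 3 arrays a group, 0 genes called does not show that cultures were alike. The median SE of a difference between 2 cultures was 0.639 without the block and 0.156 with it. The members were tested in both stimulated cultures against syngeneic, and Coro1a in all 4 comparisons; in these, no member was called under any of the alternatives run: the replicate block as a fixed or random term, quantile normalization, centred arrays, dim genes left out, other variance priors, array weights, the mean of a gene's probe sets, every probe set tested, and each array or the arrays numbered 1 left out. As a random term the block gave 24 called genes for both stimulated cultures against syngeneic, 1 for allogeneic against syngeneic, 30 for antibody against syngeneic and 0 for allogeneic against antibody. As a fixed term it gave 0 in all 4. Centred arrays gave 1 called gene in each comparison with syngeneic culture and 0 in the other.

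For allogeneic minus antibody, values over the 10 settings that keep all arrays ran from −1.49 to −1.33 for Mical1, −0.84 to −0.70 for Lcp1, −0.99 to −0.64 for Myh9, −2.39 to −1.86 for Svil and −0.43 to −0.08 for Coro1a. Over the 9 fits without 1 array they ran from −1.69 to −0.87, −0.88 to −0.37, −1.23 to −0.46, −3.38 to −1.34 and −0.70 to 0.05. Small differences turned sign when arrays were left out. For both stimulated minus syngeneic the ranges were −0.34 to 0.08 for Mical1, −0.24 to 0.26 for Myh9 (−0.04 without number 1), −0.06 to 1.27 for Svil and −0.32 to 0.36 for Coro1a. For allogeneic minus syngeneic they were −0.27 to 0.24 for Lcp1 and −0.65 to 0.22 for Coro1a, and for antibody minus syngeneic −0.27 to 0.50 for Coro1a. The cause of these changes was not tested.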
